A study of Mus musculus with 6 samples.

Results

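The core of the RNA exosome was followed on the array through every probe that the files name Exosc1 to Exosc9. These were 10 probes for 9 genes, of 55660 probes with a usable spot, since Exosc1 had 2 probes (probes a and b in the plots) and each other gene had 1. The 3 shExosc8 samples were mouse fetal liver erythroid progenitors of embryonic stage E-14.5 infected with a retrovirus whose short hairpin RNA was directed at Exosc8. The 3 shControl samples were the same kind of cell given a retrovirus with a hairpin against luciferase, a firefly gene that mouse cells lack. Cells of both groups were isolated with an EasySep kit, spun with polybrene and virus made in 293T cells, and grown for 3 days with erythropoietin, dexamethasone and medium from cells secreting kit ligand. The design text describes this as a period of erythroid maturation. One hairpin against Exosc8 is named, with no second hairpin or rescue, and the labels do not say whether replicates came from separate embryos or cultures. A p-value here thus reflects just the variation among the arrays, part or all of which may be technical.

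The exosome degrades RNA from the 3′ end and trims precursors such as those of ribosomal RNA. In the human complex, 6 proteins related to a bacterial ribonuclease form a ring with a central channel, and 3 cap proteins with RNA-binding domains sit on top of it and hold it together. The core itself has no catalytic activity in mammals and hands RNA to the ribonucleases Dis3, Dis3l and Exosc10. The ring is built of dimers, which in the human structure are Exosc4 with Exosc9, Exosc5 with Exosc8 and Exosc6 with Exosc7. Among the cap proteins there, Exosc1 lies over Exosc6 and Exosc8, Exosc2 over Exosc4 and Exosc7, and Exosc3 over Exosc5 and Exosc9.

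The following probe sequences are shown because they bear on what each signal can measure. Agilent's coordinates are on mouse build mm9. The Exosc8 probe, on the minus strand at chr3:54535935-54536079, covers 145 bases of genome with 60 bases of sequence, so it spans an intron and matches spliced RNA. The first Exosc1 probe (a), on the minus strand at chr19:41999695-42001046, likewise spans an intron within 1352 bases. The Exosc4 probe lies unbroken on the plus strand at chr15:76159845-76159904.
Exosc8: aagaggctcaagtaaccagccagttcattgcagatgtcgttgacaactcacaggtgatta
Exosc1, first probe: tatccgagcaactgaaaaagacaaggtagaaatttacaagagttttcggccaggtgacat
Exosc4: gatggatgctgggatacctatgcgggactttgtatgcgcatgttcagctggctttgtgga

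The Exosc2 and Exosc9 probes are shown in part because they were the only members that shared a run of 15 or more bases with probes of other names. For Exosc2 (plus strand, chr2:31536706-31536765), probe bases 3 to 32 are given, all in capitals because all lie within a run of 39 bases found also in a Milr1 probe. Such sequence is typical of a short interspersed repeat family of rodents. For Exosc9 (plus strand, chr3:36464428-36464487), bases 15 to 44 are given, with capitals for the GT repeat.
Exosc2: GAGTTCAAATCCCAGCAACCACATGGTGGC
Exosc9: gatctcTGTGTGTGTGTGTGTGTatacata
The other 8 member probes shared no such run, whereas 32.1% of all probes on the array did. The second Exosc1 probe lies at chr19:41998088-41998147 on the minus strand, Exosc3 at chr4:45329659-45329718 on the minus strand, and Exosc5 at chr7:26452979-26453038 on the plus strand. Exosc6 at chr8:113581332-113581391 and Exosc7 at chr9:123045135-123045194 are on the plus strand. An mm9 gene annotation was not used here, so exon and UTR positions are not given for the unbroken probes.

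Every one of the 10 probes was well above background on all 6 arrays, none was saturated, and all passed the filter on dim probes. Between 43.1% and 67.3% of spots were well above background per array, the highest on shControl replicate 2. Pairs of arrays in 1 group correlated at r = 0.985 to 0.997 and pairs between groups at r = 0.953 to 0.978, with shExosc8 replicate 3 closest to the controls. The slide carried the shExosc8 samples in 1 row and the shControl samples in the other. Row effects and hairpin effects cannot be told apart. Signals below are log2 processed signal minus the array's 75th percentile, so 0 is the level of a fairly bright probe on that array.

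Exosc8 itself, a ring subunit and the target of the hairpin, had scaled log2 signals of 0.47, 0.45 and 0.97 in shExosc8 arrays and 1.75, 1.74 and 1.83 in shControl arrays. The groups did not overlap, and shExosc8 replicate 3 retained more signal than replicates 1 and 2. On the log2 scale the change was -1.14 ± 0.17 (SE over 3 arrays per group), with a 95% interval of -1.54 to -0.74 and an adjusted p of 0.00606 from limma. That is 45.3% of the control level. The 6 values alone gave p = 0.1 in a two-sided exact permutation test, the smallest that 3 against 3 can give. The call held when each array in turn was left out and ended with the slide column as a block, at -1.03 and adjusted p = 0.142 in limma. In that fit shExosc8 replicate 1 and shControl replicate 3 were each alone in their column and did not inform the difference. An effect of slide column and the loss of those arrays thus cannot be told apart there.

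Of the 10 core probes, 5 fell and 0 rose at an adjusted p under 0.05 in limma, and these 5 measure Exosc1 (both probes), Exosc3, Exosc7 and Exosc8. Among all 24836 probes tested, 27.8% were called, 13.1% as lower and 14.7% as higher. In limma the count of 5 was 0 with the slide column as a block (3 lower at an unadjusted p under 0.05) and 1 with no filter on dim probes. Of all probes, 1.64% and 3.07% were called in these fits, and the unadjusted share was not counted. It was 1 without shControl replicate 1, 2 without shExosc8 replicate 1 or shControl replicate 3, and 3 without shControl replicate 2. In those refits 11.5% to 17.3% of all probes were called. The core count was 7 with the percentile over all probes, with no scaling and without shExosc8 replicate 3. There 37.8%, 50.5% and 43.2% of all probes were called. At an unadjusted p under 0.05, 7 core probes were lower and 0 higher. Of all 24836 probes tested, 10866 had such a p in either direction, and how many of these were lower was not counted. In 7 of the 10, every shExosc8 array was below every shControl array, which was so for 28.7% of all probes tested. The median log2 fold change of the 10 was -0.54, against -0.08 over all probes tested. One of the 5 is the hairpin's target, and 2 of them measure the same gene. In bulk RNA, fewer cells of a type and less RNA per cell cannot be told apart.

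**Figure D1:**
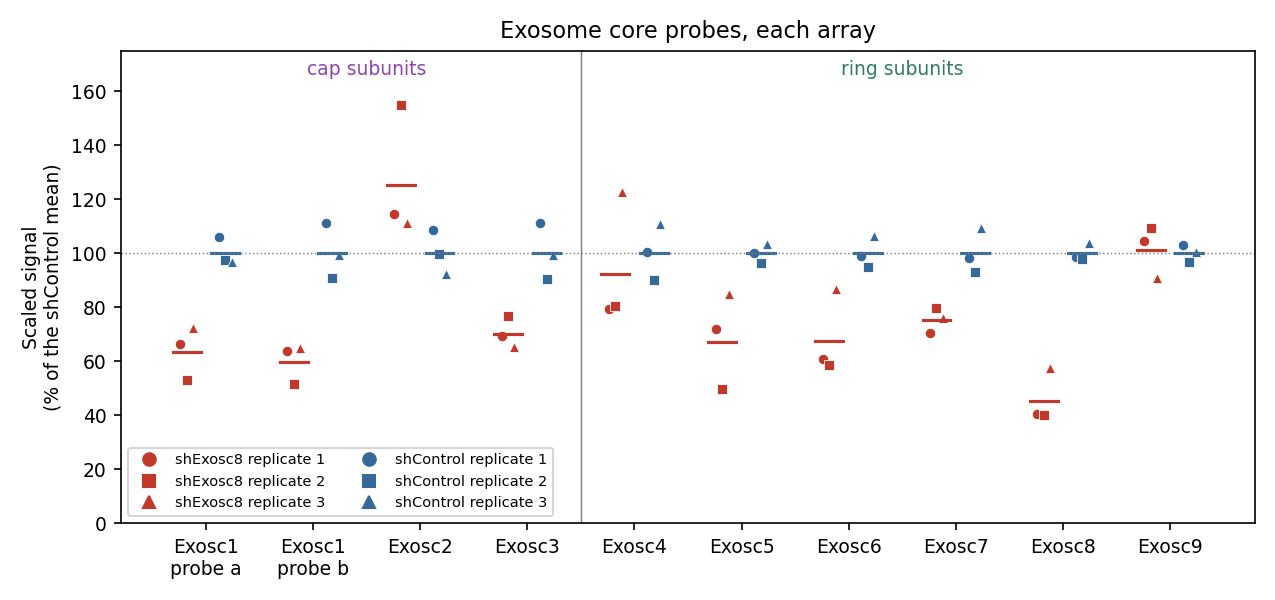
Scaled signal of each core probe on each array as a percentage of that probe's shControl mean, with the 3 shExosc8 arrays (red) left of the 3 shControl arrays (blue), a marker shape per replicate and bars at the geometric mean of the group. Exosc8 lies lowest, with a group mean at 45.3% in shExosc8, and Exosc2 lies above 100 on all 3 shExosc8 arrays.

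**Figure D2:**
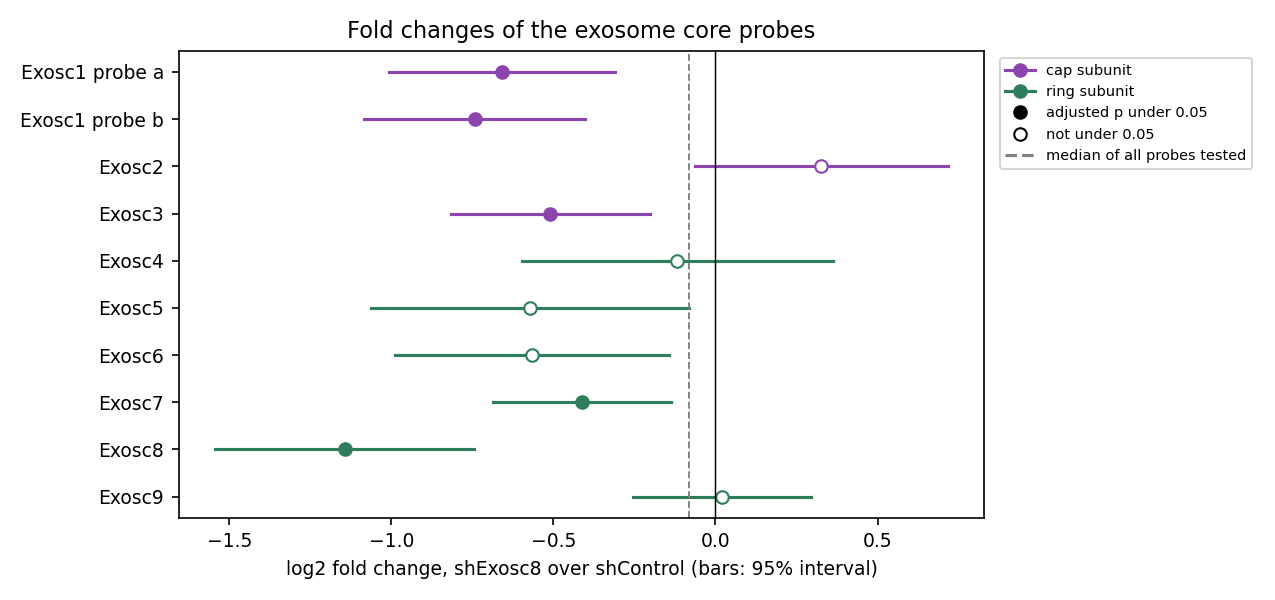
Log2 fold change of shExosc8 over shControl for each core probe, with 95% intervals from limma (n = 3 per group). Filled points had an adjusted p under 0.05, and the dashed line is the median of all probes tested, -0.08.

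Among the cap subunits, Exosc1 was lower in shExosc8 by both of its probes. The first probe read -1.82, -2.14 and -1.69 in shExosc8 arrays and -1.14, -1.26 and -1.27 in shControl arrays. The second, at a separate position, read -1.85, -2.15 and -1.82 in shExosc8 arrays and -1.05, -1.34 and -1.21 in shControl arrays. No array of one group reached into the other with either probe, and shExosc8 replicate 2 was the lowest by both. The log2 fold changes were -0.66 ± 0.14 and -0.74 ± 0.14 (SE, n = 3 per group), which leave 63.3% and 59.8% of control, with adjusted p = 0.0210 and 0.0138 in limma. The difference between the probes changed by 0.08 between groups (p = 0.3, two-sided exact permutation test of 3 against 3 arrays). Exosc1 is the counterpart of the yeast cap protein Csl4.

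Exosc3, another cap protein with RNA-binding domains, read -1.49, -1.34 and -1.58 in shExosc8 arrays and -0.81, -1.11 and -0.97 in shControl arrays. The groups were apart on all 6 arrays. Its log2 change of -0.51 ± 0.13 (SE, 3 arrays per group) leaves 70.3% of control with a 95% interval of 56.8% to 86.8%, at adjusted p = 0.0305 in limma. Exosc3 lost its call with 3 of the 6 arrays left out in turn, and the first Exosc1 probe with 4, while the second Exosc1 probe lost it only without shControl replicate 1 (adjusted p = 0.0575). None of the 3 changed sign.

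Exosc2, the remaining cap protein, was the one core probe above 0 in every shExosc8 array relative to its control mean. It read 6.64, 7.08 and 6.60 in shExosc8 arrays and 6.57, 6.44 and 6.33 in shControl arrays. The groups did not overlap, by a margin that was small beside their spread, and shExosc8 replicate 2 was highest. The log2 fold change of 0.33 ± 0.16 (SE, n = 3 per group; 95% interval -0.06 to 0.72) did not pass, with an adjusted p of 0.166 in limma. With quantile normalization the value was 0.05, and without scaling between arrays it was -0.17. The Milr1 probe that shares the 39 bases printed in part above had a log2 difference of 0.31 (adjusted p = 0.192), and a probe of 2610028H24Rik that shares 16 bases had 0.27 (adjusted p = 0.190). The part of shared sequence in the Exosc2 signal was not tested.

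Exosc7, a ring subunit, read 1.30, 1.47 and 1.40 in shExosc8 arrays and 1.78, 1.70 and 1.93 in shControl arrays. Every shExosc8 array was below every control, and the spread within shExosc8 was the smallest of the core probes. The fitted change of -0.41 ± 0.11 on the log2 scale (SE, 3 arrays per group) leaves 75.2% of control, with adjusted p = 0.0411 in limma. Exosc7 lost its call with 5 of the 6 arrays left out in turn and kept its sign.

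Exosc5, the dimer partner of Exosc8, read 2.49, 1.96 and 2.73 in shExosc8 arrays and 2.97, 2.92 and 3.02 in shControl arrays. The 3 shExosc8 arrays were all below the controls but far apart from each other. At -0.57 ± 0.20 (SE, n = 3 per group; 95% interval -1.06 to -0.08) the log2 fold change did not pass, with adjusted p = 0.0785 in limma. It passed without shExosc8 replicate 3 (adjusted p = 0.0237 in limma) and shrank to -0.36 without shExosc8 replicate 2 (adjusted p = 0.111).

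Exosc6, the partner of Exosc7, read 1.24, 1.18 and 1.75 in shExosc8 arrays and 1.94, 1.88 and 2.05 in shControl arrays. Replicate 3 of shExosc8 lay nearest to the controls, as it did for Exosc5. The log2 fold change of -0.57 ± 0.17 (SE, n = 3 per group; 95% interval -0.99 to -0.14) missed the threshold at adjusted p = 0.0550 in limma. It passed without shExosc8 replicate 3 (adjusted p = 0.00534) and with median centring (adjusted p = 0.0439).

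Exosc4 and Exosc9, which form the remaining dimer, showed no difference beyond their spread. Exosc4 read -0.14, -0.12 and 0.48 in shExosc8 arrays and 0.20, 0.04 and 0.34 in shControl arrays, so that shExosc8 replicate 3 was above all controls and replicates 1 and 2 below them. Its log2 fold change was -0.12 with a 95% interval of -0.60 to 0.36 and an adjusted p of 0.672 in limma. Exosc9 read 2.00, 2.07 and 1.80 in shExosc8 arrays and 1.98, 1.89 and 1.95 in shControl arrays, on both sides of the controls. Its log2 fold change was 0.02 with a 95% interval of -0.25 to 0.29, or 83.8% to 122.5% of control, and an adjusted p of 0.909 in limma. That interval does not reach a fall as large as those fitted for Exosc1, Exosc3, Exosc5, Exosc6, Exosc7 or Exosc8. Those falls have intervals of their own, and that of Exosc3, -0.82 to -0.20, overlaps the Exosc9 interval. Exosc9 was not tested against Exosc3.

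The Exosc9 sign was not stable, since it was -0.13 with the 75th percentile taken over all probes and -0.48 with no scaling. This probe shared a run of 15 or more bases with 86 other probes, 85 of which passed the filter. Which of these runs lay within the GT repeat was not counted. None of the 85 was called by limma, against 27.8% of all probes tested, and their median log2 difference was 0.30. The part of shared sequence in the Exosc9 signal was not tested.

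Cap and ring probes had overlapping ranges of log2 fold change, -0.74 to 0.33 in the cap and -1.14 to 0.02 in the ring. The 4 cap probes had a median log2 fold change of -0.58, with 3 called lower, and the 6 ring probes had a median of -0.49, with 2 called lower. Without Exosc8 the ring median was -0.41, with 1 of 5 called. On shExosc8 arrays 1, 2 and 3, the median cap probe stood at -0.56, -0.65 and -0.54 and the median ring probe at -0.49, -0.55 and -0.22, each relative to its shControl mean on the log2 scale. On shControl arrays these medians lay between -0.09 and 0.14 for the cap and between -0.06 and 0.07 for the ring. Among the shExosc8 arrays, replicate 3 was the farthest from the others in the ring and had the most Exosc8 signal. The ring median includes Exosc8 itself. The class medians are a description of few probes, and 2 of the cap probes measure Exosc1. They also count the Exosc2 and Exosc9 probes, which share sequence with probes of other names.

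A ratio of 2 probes on the same array does not depend on scaling between arrays, and its change shows whether Exosc8 fell further than another subunit. Exosc8 fell further than each of the other 9 probes on average, and in none of the 9 ratios did the groups overlap. All 9 ratios share the Exosc8 signal, so they are not separate results. How many probes outside the core would give such a ratio was not counted. For the second Exosc1 probe and Exosc3 the gap was narrow, with the nearest arrays at -0.18 in shExosc8 and -0.17 in shControl, relative to the control mean. Each gave p = 0.1 in a two-sided exact permutation test (3 against 3 arrays), also after Benjamini-Hochberg adjustment over the 9 pairs, which is the smallest value this design allows.

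The ratio of Exosc8 to Exosc6 was the tightest. Relative to its control mean it was -0.59, -0.55 and -0.60 on the log2 scale in shExosc8 arrays, against -0.01, 0.04 and -0.04 in shControl arrays. The higher signal of shExosc8 replicate 3 for each of these genes thus left their ratio at the level of replicates 1 and 2. The ratio to Exosc4 behaved alike, at -0.98, -1.01 and -1.09 in shExosc8 arrays, against -0.03, 0.12 and -0.09 in shControl arrays. Those mean changes, -0.58 and -1.03, correspond to 67.0% and 49.1% of the control ratio.

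Against its dimer partner Exosc5, Exosc8 changed by -0.83, -0.32 and -0.56 in shExosc8 arrays, against -0.02, 0.02 and 0.00 in shControl arrays, a mean of -0.57. Against the cap protein Exosc1 the mean change was smallest, -0.48 by the first probe and -0.40 by the second. The largest, -1.47 and -1.16, were against the Exosc2 and Exosc9 probes. These share sequence with probes of other names, and the part of this in the ratios was not tested. Exosc3 and Exosc7 lay between, at -0.63 and -0.73.

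**Figure D3:**
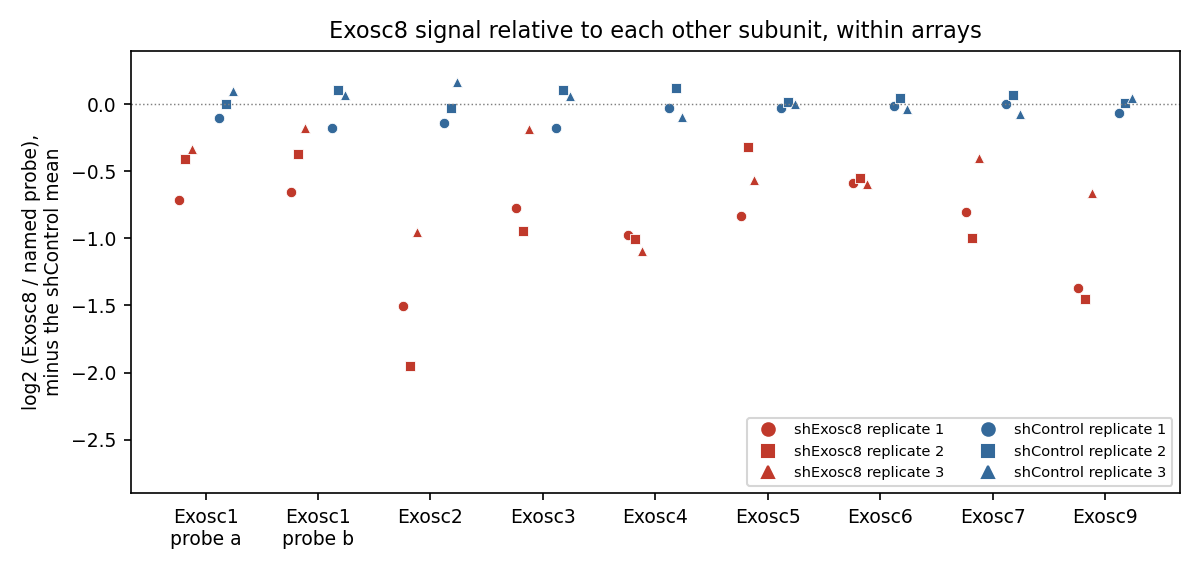
Log2 ratio of the Exosc8 probe to each other core probe on the same array, minus the mean ratio in shControl. Points are single arrays, shExosc8 (red) left of shControl (blue) for each probe. In all 9 ratios, which share the Exosc8 signal and so are not separate results, the shExosc8 points lie below the shControl points.

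For the dimers not containing the target, the partners kept no fixed side. The log2 ratio of Exosc4 to Exosc9, relative to its control mean, was -0.40, -0.45 and 0.43 in shExosc8 arrays and -0.04, -0.11 and 0.14 in shControl arrays. That of Exosc6 to Exosc7 was -0.21, -0.45 and 0.19 in shExosc8 arrays and 0.01, 0.03 and -0.04 in shControl arrays. In both, shExosc8 replicate 3 lay on the opposite side from replicates 1 and 2.

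In shControl arrays all core probes gave signal far above background. The unscaled processed signal of the first Exosc1 probe was 2751, 2574 and 2595 on shControl arrays 1, 2 and 3, and that of Exosc3 was 3450, 2858 and 3189. Exosc4 gave 6939, 6322 and 7896 and Exosc8 gave 20409, 20581 and 22215. The Exosc2 probe gave 573386, 533529 and 503192, without saturation. Scaled log2 levels in shControl (mean ± SD, n = 3) were -1.22 ± 0.07 and -1.20 ± 0.15 for the 2 Exosc1 probes, 6.45 ± 0.12 for Exosc2 and -0.96 ± 0.15 for Exosc3. In the ring they were 0.19 ± 0.15 for Exosc4, 2.97 ± 0.05 for Exosc5, 1.96 ± 0.08 for Exosc6, 1.80 ± 0.12 for Exosc7, 1.78 ± 0.05 for Exosc8 and 1.94 ± 0.04 for Exosc9. On shControl arrays every core reading was at least 5.88 log2 units above the lowest signal that counted as well above background on its array. Probes bind with unequal efficiency, so the levels of different subunits are not ranked. The Exosc2 and Exosc9 probes also share sequence with probes of other names, and the part of this in their levels was not tested.

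The probes whose pattern over the 6 arrays was nearest to that of Exosc8 were not core subunits. Likeness was the Euclidean distance between log2 signals set to each probe's own control mean, over 17160 probes with a gene symbol. The 5 nearest measured Zfp984 (distance 0.097), Ttc21b (0.184), Bcl2l2 (0.193), Clcn2 (0.195) and Txndc5 (0.202). Of the other core probes the nearest were the second and first Exosc1 probes at ranks 699 and 994, followed by Exosc6 at 1434 and Exosc5 at 1686. Exosc2 was the farthest, at rank 13067.

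The partners of the core were counted from a list of 3 catalytic subunits and 19 cofactors, each gene represented by its brightest probe. Of 21 measured genes, 8 fell and 0 rose in limma, against 13.1% of all probes called lower. A log2 fold change below 0 was found for 19 of the 21 genes, against 56.8% of all probes tested. Their median was -0.32, against -0.08 over all probes tested. C1d, an Exosc10-binding cofactor, did not pass the filter. These calls were fragile, since 0 to 11 of the 21 genes were called when each array in turn was left out, and Mphosph6 and Ttc37 alone among the 8 kept theirs in more than 1 of the 6 refits.

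Among the ribonucleases, Dis3, the main catalytic subunit of the nuclear exosome, had a scaled log2 signal of 0.37, 0.47 and 0.36 in shExosc8 arrays and 0.78, 0.72 and 0.71 in shControl arrays. The groups were apart, with a log2 fold change of -0.34 ± 0.10 (SE, n = 3 per group; adjusted p = 0.0464 in limma). Dis3l, its cytoplasmic relative, had a log2 fold change of -0.38 ± 0.11 (adjusted p = 0.0432). Exosc10, the nuclear ribonuclease that trims RNA a few bases at a time, gave -0.19 (adjusted p = 0.269) by its brighter probe and -0.52 (adjusted p = 0.0418) by the other.

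Among the cofactors, the nuclear protein Mphosph6, which binds the core and recruits the helicase Mtrex, read -1.08, -0.98 and -0.58 in shExosc8 arrays and 0.01, -0.09 and -0.11 in shControl arrays. Every shExosc8 array was below every control, and the log2 fold change was -0.82 ± 0.15 (SE, 3 arrays per group; adjusted p = 0.0135 in limma). Zcchc8, the scaffold of the nuclear exosome targeting complex, fell by 0.85 on the log2 scale (adjusted p = 0.0323 in limma). Ncbp2, a subunit of the nuclear cap-binding complex, fell by 0.88 (adjusted p = 0.0462 in limma). Ttc37, the scaffold of the cytoplasmic Ski complex, fell by 0.54 (adjusted p = 0.0150 in limma). Zcchc7, a zinc knuckle partner of the poly(A) polymerase Tent4b, fell by 0.47 by its brighter probe (adjusted p = 0.0323 in limma). The other Zcchc7 probe gave -0.37 (adjusted p = 0.207 in limma), with overlapping groups. Pabpn1, the nuclear poly(A)-binding protein, fell by 0.39 (adjusted p = 0.0480 in limma). Tent4b itself read above its controls, at 0.28 (adjusted p = 0.115 in limma).

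**Figure D4:**
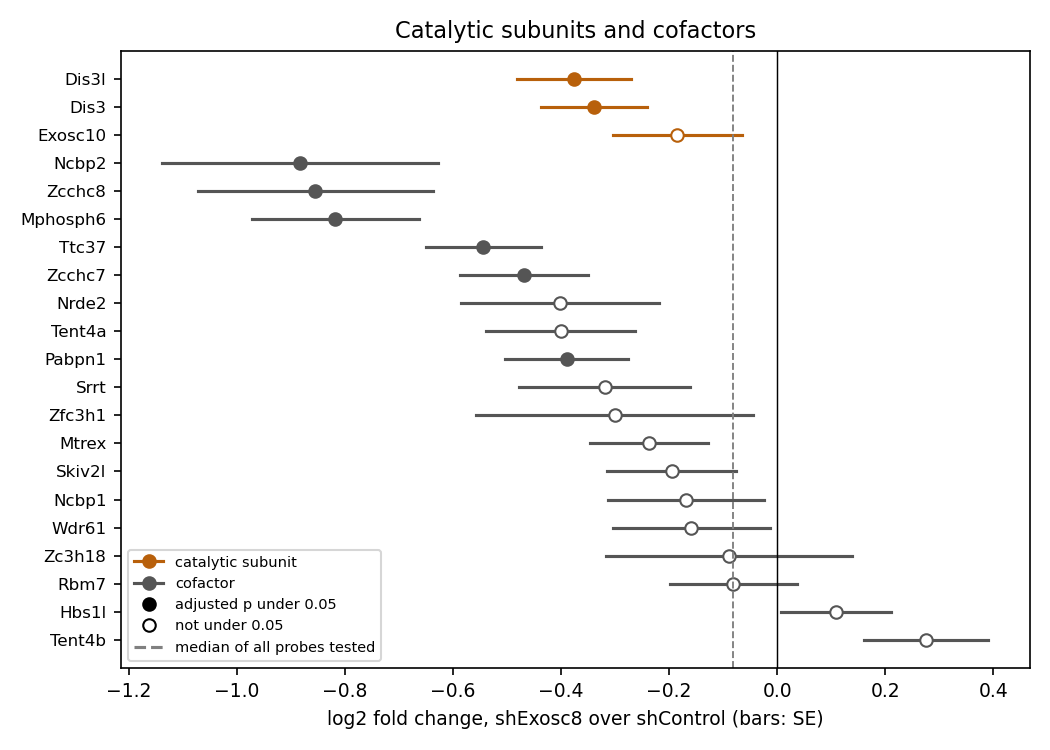
Log2 fold change of shExosc8 over shControl, with bars of 1 SE from limma (n = 3 per group), for 21 measured catalytic subunit and cofactor genes, and the median of all probes tested as a dashed line. Of these genes 19 lie below 0, as do 56.8% of all probes tested, and the 8 filled points had an adjusted p under 0.05.

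The cells of the 2 groups also differed in markers of cell types, and the part of this in the core's values was not tested. All 12 erythroid markers were measured and all were well above background in shControl. Of these, 3 rose (among them Alas2 at 1.67 and Slc4a1 at 1.16 on the log2 scale) and 1 fell (Epor, -0.58), and their summed level was 8.66 to 9.32 log2 units in shExosc8 arrays and 8.28 to 8.53 in shControl arrays. All 10 megakaryocyte markers rose, with a summed level of 5.72 to 6.16 in shExosc8 arrays and 2.50 to 2.98 in shControl arrays. Of 10 neutrophil and monocyte markers 9 rose (5.77 to 6.16 in shExosc8 arrays and 4.52 to 4.73 in shControl arrays).

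For the sparser lists, 4 of 5 measured mast cell markers rose (summed level 1.46 to 2.16 in shExosc8 arrays and -0.13 to 0.39 in shControl arrays), with Fcer1a, Ms4a2 and Tpsab1 not well above background on any array. Of 5 measured macrophage markers 4 rose (-0.01 to 0.34 in shExosc8 arrays and -1.19 to -0.80 in shControl arrays), with Mertk and Vcam1 not well above background. Of 6 measured hepatocyte markers 3 rose (-0.57 to -0.16 in shExosc8 arrays and -1.15 to -0.92 in shControl arrays). Of 4 measured endothelial and stromal markers 1 rose and 1 fell (0.33 to 0.48 in shExosc8 arrays and 0.15 to 0.19 in shControl arrays), with Cdh5 and Col1a1 not well above background. Of 6 measured lymphoid markers 1 rose (0.77 to 1.09 in shExosc8 arrays and 0.37 to 0.84 in shControl arrays), with Rag1 among those not well above background on any array. Each summed level is the log2 of summed linear scaled signals, so the brightest markers weigh most. It covers every listed marker with a probe, also those that did not pass the filter.

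In the authors' deposited table the log2 fold change of Exosc8 was -1.06 with an adjusted p of 0.0730, and the authors' deposited table gave 0 of the 10 core probes an adjusted p under 0.05 and 6 an unadjusted one (limma). The authors' deposited table passes 3.34% of its non-control spots at that adjusted threshold. The share of its spots at the unadjusted threshold was not counted. The values there were -0.64 and -0.71 for Exosc1, -0.48 for Exosc3, -0.66 for Exosc5, -0.59 for Exosc6 and -0.39 for Exosc7 in the authors' deposited table. Exosc4 at -0.09, Exosc2 at 0.06 and Exosc9 at 0.08 lay nearest to 0 in the authors' deposited table.

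The direction of 8 core probes did not depend on how the arrays were scaled. The median log2 fold change of all tested probes was -0.08 under the scaling used, -0.23 with the percentile over all probes, 0.04 with normexp background correction and -0.58 with no scaling. Exosc8, both Exosc1 probes, Exosc3, Exosc5, Exosc6, Exosc7 and Exosc4 were below 0 under these and the median and quantile scalings, and Exosc2 and Exosc9 were not.

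**Figure D5:**
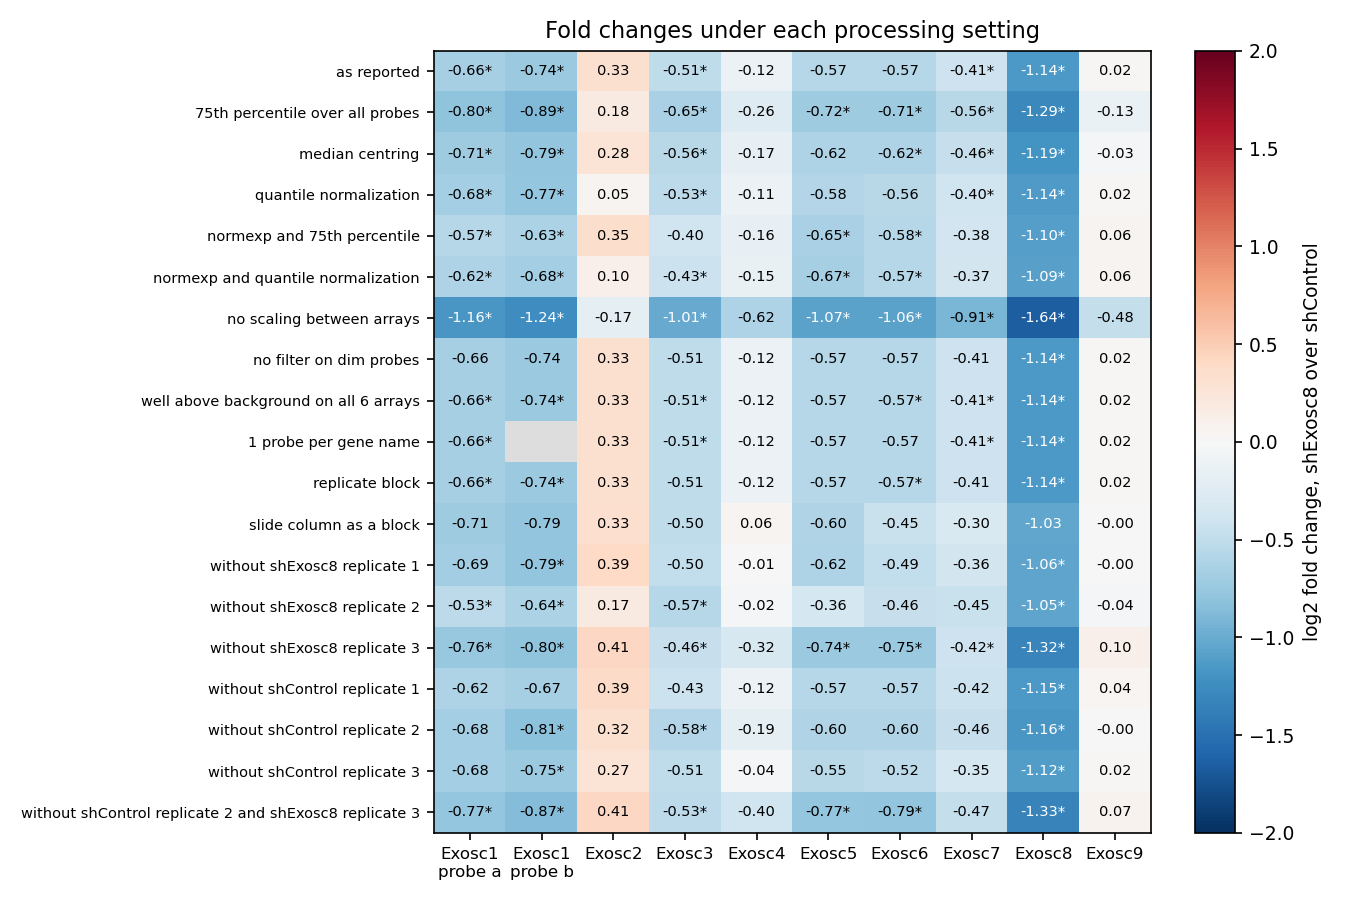
Log2 fold change of shExosc8 over shControl for each core probe (columns) under each setting tried (rows), with an asterisk where the adjusted p from limma was under 0.05 and grey where the probe was not used. Exosc8 has the lowest value in every row, and only Exosc2, Exosc4 and Exosc9 have values on both sides of 0.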

How the data were processed

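The deposited scanner files hold spot intensity that, per the file headers, Agilent Feature Extraction 10.7.3.1 had background-subtracted and detrended. The series table adds log2 fold changes and p-values that the authors deposited, computed with limma per the submitters' processing notes. The sources used here do not give their normalization. Control spots and spots flagged as outliers were dropped, and spots of 1 probe were averaged. From the log2 signal of an array its 75th percentile was subtracted, taken over the 21615 probes (38.8%) detected above background on every array. A probe was tested if well above background in every sample of either group, which held for 24836 of 55660. Each probe was fitted by group alone with limma 3.58.1 in R 4.3.3, by lmFit and two-sided eBayes tests. P-values were adjusted by Benjamini-Hochberg over all kept probes, with 0.05 as threshold. The step was tested on simulated data. The number of arrays limits the precision.

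Named genes were all core probes, the catalytic subunits, the called cofactors and the 4 cofactors with the smallest p, and the 5 probes most like Exosc8. Tent4b, Milr1, 2610028H24Rik, C1d and the erythroid markers given by name were named after their values were seen. Some single marker genes are not reported here. The members and lists were chosen with earlier results of these data known. Gene names came from a RefSeq gene table for 27495 probes by accession and 3549 by symbol, and otherwise from the files. Alternatives were other scalings, background correction, filters, blocks and leaving out each array.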

Additional observations from a re-analysis of the deposited data

How the results depend on the processing

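The Exosc8 log2 fold change was -1.14 and ranged from -1.32 to -1.05 when each array in turn was left out, with its call kept. A block for slide column gave -1.03 with an adjusted p of 0.142 in limma, and 0 core probes and 0 cofactor genes (3 and 2 lower at an unadjusted p under 0.05) and 408 of all probes were called. In that fit shExosc8 replicate 1 and shControl replicate 3, each alone in their column, did not inform the difference. With no filter on dim probes, which adjusts over all 55660 probes, 1 core probe (Exosc8), 0 cofactor genes (7 lower at an unadjusted p under 0.05) and 1708 probes were called by limma. The share of all probes at the unadjusted threshold was not counted for either fit. With no scaling, 12534 probes and 14 cofactor genes were called. Normexp gave 3 cofactor genes with percentile scaling and 5 with quantile normalization. Leaving out each array gave 1 to 7 core probes, against 5, with 1 without shControl replicate 1, 2 without shExosc8 replicate 1 or shControl replicate 3, and 3 without shControl replicate 2. All probes called then ranged from 2862 to 10730, against 6908, and cofactor genes from 0 to 11, against 8. Without shControl replicate 2 and shExosc8 replicate 3, chosen after seeing the data, 6 core probes, 7 cofactor genes and 9268 probes were called. Signs turned for Exosc9 (-0.13 with the percentile over all probes, -0.030 with median centring, -0.48 with no scaling, -0.00038 with the slide column, and -0.036 to 0.097 with each array left out), for Exosc2 (-0.17 with no scaling) and for Exosc4 (0.062 with the slide column). Same-numbered samples deviated together at r = 0.09, 0.24 and 0.34 for replicates 1, 2 and 3, and pairs of unlike number at -0.29 to 0.16. For shExosc8 replicate 1 the closest control was replicate 2 (r = 0.16), not replicate 1. With the replicate block 4 core probes, 5 cofactor genes and 7101 probes were called. That fit called Exosc6 (adjusted p = 0.0427 in limma) and not Exosc3 (0.0548) or Exosc7 (0.0654). Normexp with percentile scaling called Exosc5 (0.0239) and Exosc6 (0.0366) and not Exosc3 (0.0588) or Exosc7 (0.0680). The 224 further values included the Exosc8 ratios, which had no call to keep or lose, so the unchanged ones are not all kept calls. Of the 224, 172 kept their direction and, for fold changes, their side of the threshold. Another 15 gained and 27 lost a call, 9 turned sign and 1 ratio moved beyond its spread. The cause of these shifts was not tested, apart from the number of probes or arrays named.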
